A study of Mus musculus with 6 samples.

Results

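The Toll-like receptor (TLR) genes described here are the 9 rows of the deposited count table with the symbols Tlr1, Tlr2, Tlr3, Tlr4, Tlr6, Tlr7, Tlr8, Tlr9 and Tlr13, together with Cd14, the co-receptor that hands bacterial lipopolysaccharide to TLR4. They are 10 of 24956 gene rows, they were chosen by symbol, and all 10 were among the 14520 genes tested. The RNA came from microglia, the brain's own macrophages, which were sorted from 3XTg-AD mice 7 months old. Mice of the anti-NK1.1 group (n = 3 libraries) were given 25 µg of an antibody that depletes cells that carry NK1.1, found mainly on natural killer (NK) cells, every 4 days for 4 weeks. Mice of the isotype group (n = 3 libraries) were given a control antibody on the same schedule. Both groups carry the disease alleles of this Alzheimer's disease model, among them human APP and MAPT transgenes, so no group lacks them. The labels give neither the sex of the mice nor whether a library came from 1 animal or a pool, and the p-values therefore measure the spread between these libraries. The comparison asks how microglial transcripts differ when NK cells are depleted.

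TLRs are pattern recognition receptors with a leucine-rich ectodomain that binds microbial or danger-associated ligands and a cytoplasmic TIR domain that recruits adaptors. Those that bind lipids sit mainly at the cell surface, while those that bind nucleic acids are carried to endosomes by the chaperone UNC93B1. Signalling through the adaptor MyD88, or through TRIF for TLR3 and internalised TLR4, activates NF-kB and interferon regulatory factors. In brain, TLRs and CD14 are characteristic of microglia, and CD14, TLR2 and TLR4 are known as part of the receptors through which microglia respond to fibrillar amyloid.

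Gene counts totalled 26.9 M to 31.4 M in the anti-NK1.1 libraries and 31.9 M to 36.1 M in the isotype libraries. Klrb1c, which encodes NK1.1, had 0, 0 and 13 counts in anti-NK1.1 libraries 1 to 3 and 50, 45 and 80 counts in isotype libraries 1 to 3. The microglial markers P2ry12, Tmem119 and Csf1r were detected in every library. P2ry12 had 2694, 4384 and 2683 CPM (counts scaled for depth, so that libraries compare) in anti-NK1.1 libraries, against 5058, 4557 and 5010 CPM in isotype libraries, and Csf1r had 3137, 5258 and 2244 CPM in anti-NK1.1 libraries, against 3579, 4402 and 5959 CPM in isotype libraries. Transcripts typical of other myeloid cells were also found. All 10 neutrophil markers were detected in every library, and they summed to 30900 to 136000 CPM in anti-NK1.1 libraries, with the highest value in library 3, and to 69900 to 97200 CPM in isotype libraries. Summed markers of oligodendrocytes, neurons and T cells were higher without overlap in the anti-NK1.1 group, and those of astrocytes and endothelial cells overlapped. The sum was 747 to 876 CPM in anti-NK1.1 libraries, against 291 to 399 CPM in isotype libraries, for 6 oligodendrocyte markers. For 6 neuronal markers it was 177 to 562 CPM in anti-NK1.1 libraries, against 37.7 to 137 CPM in isotype libraries, and for 6 T cell markers 31.1 to 36.3 CPM in anti-NK1.1 libraries, against 10.2 to 19.1 CPM in isotype libraries. The part of these cells in the TLR values was not tested. Anti-NK1.1 libraries 1 and 3 stood apart by transcript length. Across 14391 genes, the deviation of a gene's level from its mean over the libraries had a Spearman rho with transcript length of -0.16 in anti-NK1.1 1 and -0.31 in anti-NK1.1 3, against 0.26 in anti-NK1.1 2 and -0.01 to 0.33 in the isotype libraries. Long transcripts took a smaller share of the reads in those 2 libraries.

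Most TLR genes had lower levels in the anti-NK1.1 group, while Cd14 did not. The log2 change, anti-NK1.1 over isotype, was below 0 for 8 of the 10 genes and had a median of -0.66, against 49.1% of all tested genes below 0 and a median of 0.01. Among tested genes with transcripts of 3000 to 4000 nt, 58.2% were below 0, with a median of -0.15. For those of 4000 to 5000 nt it was 64%, with a median of -0.26. None of the 10 passed edgeR's quasi-likelihood test at an adjusted p under 0.05, nor did any of the 14520 genes tested (0%). At an unadjusted p under 0.05, edgeR gave 2 of the 10, both lower, where 3.8% of all tested genes were lower at that level and 6.54% were past it in either direction. DESeq2 on the same counts called 83 genes (0.574%) and limma-voom 0 (0%), and neither called any of the 10. At an unadjusted p under 0.05, DESeq2 gave 4 of the 10 and limma-voom 5, all lower, where 5.21% and 6.27% of tested genes were lower at that level. In bulk RNA, fewer cells of a type and less RNA per cell cannot be told apart.

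**Figure D1:**
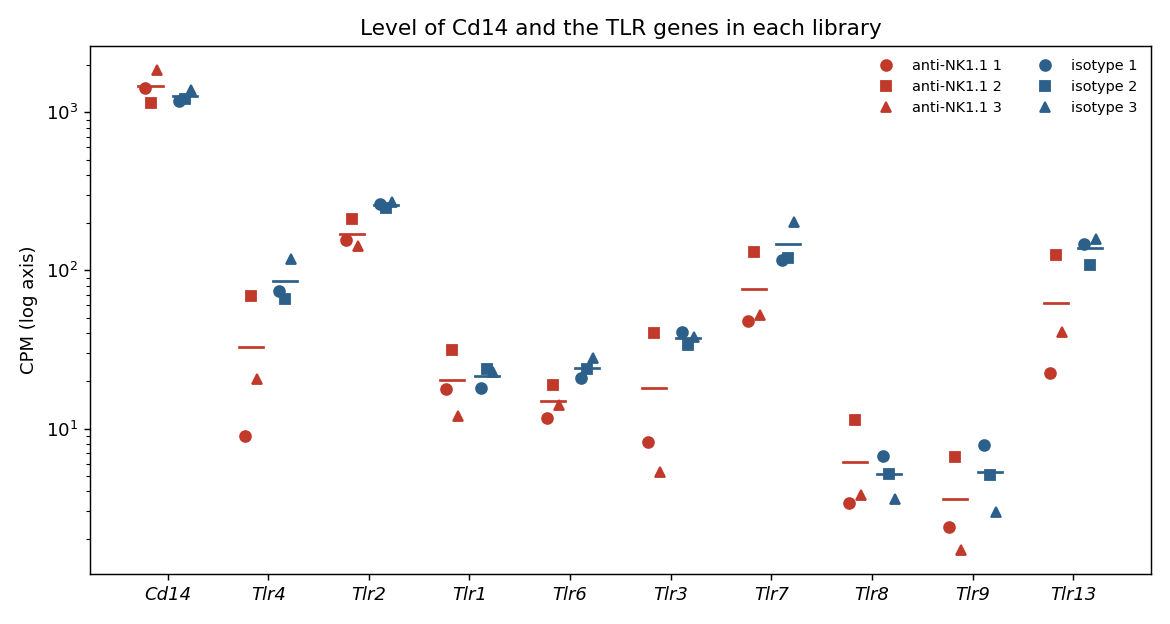
CPM of each gene in every library on a log axis, anti-NK1.1 libraries in red at the left and isotype libraries in blue at the right of each pair, with the group mean as a bar (n = 3 each). Anti-NK1.1 1 and 3 lie below every isotype library for 8 of the 9 TLR genes, while anti-NK1.1 2 lies below for Tlr2 and Tlr6 alone.

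Cd14 was the most abundant gene of the set. It lies on chromosome 18 (36725067 to 36726798, minus strand, GRCm38) and has a transcript of 1641 nt, the shortest here. Its level was 1426, 1150 and 1853 CPM in anti-NK1.1 libraries 1 to 3 and 1175, 1212 and 1392 CPM in isotype libraries 1 to 3. Anti-NK1.1 1 and 3 lay above every isotype library and anti-NK1.1 2 lay below all of them. The edgeR log2 change was 0.23 ± 0.22 (SE), with an adjusted p of 0.819. Scaled by transcript length, Cd14 averaged 900 ± 216 CPM per kb in anti-NK1.1 and 768 ± 70.8 CPM per kb in isotype libraries (SD, n = 3 each), above the range of every TLR gene in both groups. CD14 is also made by neutrophils and monocytes. The neutrophil marker sum was 30930, 31360 and 135700 CPM in anti-NK1.1 libraries 1 to 3, against 97150, 75720 and 69920 CPM in isotype libraries. Anti-NK1.1 3 was highest of the 6 libraries for both. Anti-NK1.1 1 had the lowest neutrophil sum of the 6 but a Cd14 level above every isotype library. From isotype 1 to isotype 3 the neutrophil sum fell while Cd14 rose. The part of those cells in the Cd14 values was not tested.

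Tlr4, the signalling receptor for lipopolysaccharide (chromosome 4, 66827584 to 66930284, plus strand), had the lowest anti-NK1.1 to isotype ratio of the 10. It had 237, 2353 and 514 counts in anti-NK1.1 libraries 1 to 3 and 2667, 2116 and 4505 counts in isotype libraries 1 to 3. In CPM this was 8.92, 68.7 and 20.5 in anti-NK1.1 libraries and 74.4, 65.6 and 118 in isotype libraries. Anti-NK1.1 1 and 3 lay far below the isotype range and anti-NK1.1 2 lay inside it, so the groups overlapped. The mean was 32.7 ± 31.7 CPM for anti-NK1.1, against 85.9 ± 27.9 CPM in isotype libraries (SD, n = 3 each), and the edgeR log2 change was -1.39 ± 0.62 (SE), with an adjusted p of 0.743. Ly96, which encodes MD-2, the protein that completes the lipopolysaccharide binding site of TLR4, did not follow it. Ly96 had 85.6, 59.6 and 87.1 CPM in anti-NK1.1 libraries, against 83.1, 59.8 and 53.0 CPM in isotype libraries, which gives a log2 change of 0.25 ± 0.27 (adjusted p = 0.842 by edgeR).

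Tlr2, which senses bacterial lipoproteins as a dimer with TLR1 or TLR6 (chromosome 3, 83836272 to 83841767, minus strand), was the most abundant TLR gene. Its level was 156, 211 and 142 CPM in anti-NK1.1 libraries 1 to 3 and 264, 247 and 270 CPM in isotype libraries 1 to 3. Every anti-NK1.1 library lay below every isotype library. The mean was 170 ± 36.3 CPM for anti-NK1.1, against 260 ± 12 CPM in isotype libraries (SD, n = 3 each), a ratio of 0.651, and the edgeR log2 change was -0.62 ± 0.22 (SE), with an unadjusted p of 0.0208 and an adjusted p of 0.727. Groups without overlap in this direction were found for Tlr2 and Tlr6, 2 of the 10, and for 7.59% of all tested genes. They were found for 10.7% of tested genes with transcripts of 3000 to 4000 nt, the length class of both. With 3 libraries a group, an exact permutation test on 1 gene cannot go below p = 0.1.

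Tlr6 and Tlr1 are neighbours on chromosome 5 (64952031 to 64960097 and 64924679 to 64933563, both minus strand) and encode the partners of TLR2 for diacylated and triacylated lipoproteins. Tlr6 had 11.7, 18.7 and 14.1 CPM in anti-NK1.1 libraries 1 to 3 and 20.8, 23.9 and 28 CPM in isotype libraries 1 to 3, with no overlap between the groups. Its edgeR log2 change was -0.71 ± 0.36 (SE), with an adjusted p of 0.743. Tlr1 had 17.7, 31.3 and 12 CPM in anti-NK1.1 libraries, against 18.2, 23.8 and 22.7 CPM in isotype libraries. Anti-NK1.1 2 was the highest and anti-NK1.1 3 the lowest of the 6 libraries, and the log2 change was -0.08 ± 0.41 (edgeR adjusted p = 0.968). The 2 genes share sequence, which makes their counts uncertain. Of the 75-base stretches of the Tlr1 transcript, the length of the reads, 11.5% occur unchanged in Tlr6, and 9.44% of those of Tlr6 occur in Tlr1. The sources used here do not say how reads from such stretches were counted. The longest identical run is 229 bases, from base 1939 to 2167 of the Tlr1 transcript of 3025 nt and from base 1652 to 1880 of the Tlr6 transcript of 3677 nt (GENCODE M21), and it is shown because a read from inside it cannot be assigned to either gene:
Tlr1 and Tlr6: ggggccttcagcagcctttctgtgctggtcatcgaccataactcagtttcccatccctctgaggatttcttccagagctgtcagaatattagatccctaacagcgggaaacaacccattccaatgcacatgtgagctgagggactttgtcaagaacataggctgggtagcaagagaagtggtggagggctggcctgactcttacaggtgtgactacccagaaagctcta

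The endosomal receptors Tlr3, Tlr7 and Tlr13 also spread widely within the anti-NK1.1 group. Tlr3, the receptor for double-stranded RNA (chromosome 8, 45395665 to 45411080, minus strand), has the longest transcript of the set at 4407 nt. It had 8.24, 40.2 and 5.34 CPM in anti-NK1.1 libraries 1 to 3 and 40.8, 33.9 and 38.0 CPM in isotype libraries 1 to 3. Anti-NK1.1 2 was within the narrow isotype range and the other 2 anti-NK1.1 libraries were 0.219 and 0.142 times the isotype mean. The edgeR log2 change was -1.07 ± 0.66 (SE), with an adjusted p of 0.748. An antisense gene, Gm45542, covers 7.32% of the exonic bases of Tlr3. The library kits named in the labels do not mark strand, so reads from that stretch cannot be told apart.

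Tlr13, a mouse receptor for bacterial ribosomal RNA (chromosome X, 106143204 to 106160493, plus strand), had 22.5, 125 and 40.5 CPM in anti-NK1.1 libraries 1 to 3 and 148, 109 and 157 CPM in isotype libraries 1 to 3. Its edgeR log2 change was -1.14 ± 0.53 (SE), with an adjusted p of 0.743. Tlr7, a receptor for single-stranded RNA (chromosome X, 167304929 to 167330558, minus strand), had 48.1, 130 and 52.1 CPM in anti-NK1.1 libraries, against 116, 120 and 203 CPM in isotype libraries. Its log2 change was -0.93 ± 0.41, with an unadjusted p of 0.0471 and an edgeR adjusted p of 0.743. For both genes anti-NK1.1 2 lay inside the isotype range and anti-NK1.1 1 and 3 lay below it. Unc93b1, the chaperone that carries these receptors to endosomes, had 2065, 1490 and 1862 CPM in anti-NK1.1 libraries, against 1233, 1602 and 1643 CPM in isotype libraries, which gives a log2 change of 0.27 ± 0.21 (adjusted p = 0.781 by edgeR).

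Tlr8 and Tlr9 were the least abundant of the 10. Tlr9, the receptor for unmethylated CpG DNA (chromosome 9, 106222598 to 106226883, plus strand), had 63, 226 and 43 counts in anti-NK1.1 libraries 1 to 3 and 283, 163 and 113 counts in isotype libraries 1 to 3. Its log2 change was -0.57 ± 0.78 (edgeR adjusted p = 0.861). Tlr8, whose human counterpart senses single-stranded RNA (chromosome X, 167242696 to 167264329, minus strand), had 90, 388 and 95 counts in anti-NK1.1 libraries, against 239, 167 and 137 counts in isotype libraries. Its log2 change was 0.26 ± 0.68 (edgeR adjusted p = 0.933), and anti-NK1.1 2, with 11.3 CPM, was the highest of the 6 libraries. For both genes the groups overlapped. B cells and plasmacytoid dendritic cells also express endosomal TLRs. The 7 B cell markers, all detected in every library, summed to 92.2 to 128 CPM in anti-NK1.1 libraries, against 54.1 to 94.4 CPM in isotype libraries. Of the 8 plasmacytoid dendritic cell markers, Klk1 was at 0 in all libraries and Ccr9 in all isotype libraries and in anti-NK1.1 2, while the other 6 were detected in every library. The 8 summed to 1840 to 2160 CPM in anti-NK1.1 libraries, against 2030 to 2110 CPM in isotype libraries, most of it from Siglech, which microglia also express. Irf8, Tcf4, Cox6a2 and Siglech overlapped between the groups, with edgeR log2 changes of 0.05 ± 0.22, 0.00 ± 0.39, 0.32 ± 0.56 and -0.10 ± 0.19. Ly6d and Bst2 were higher without overlap, as were 7.73% of all tested genes. Ly6d had 19.9, 13.1 and 25.4 CPM in anti-NK1.1 libraries, against 4.58, 9.18 and 2.43 CPM in isotype libraries. Bst2 had 97.3, 62.3 and 105 CPM in anti-NK1.1 libraries, against 55.5, 51.8 and 49.7 CPM in isotype libraries. The part of these cells in the Tlr7, Tlr8 and Tlr9 values was not tested.

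The 3 remaining mouse TLR genes were not among the 10. Tlr12, which with TLR11 senses a profilin of parasites, had 35.1, 55.4 and 15.0 CPM in anti-NK1.1 libraries, against 48.2, 40.2 and 55.0 CPM in isotype libraries, which gives a log2 change of -0.44 ± 0.43 (adjusted p = 0.818 by edgeR). Tlr5, the receptor for flagellin, had 0, 107 and 20 counts in anti-NK1.1 libraries, against 39, 177 and 513 counts in isotype libraries, and Tlr11 had 0, 139 and 58 counts in anti-NK1.1 libraries, against 149, 1 and 0 counts in isotype libraries. Libraries of the same group differed widely for both genes, and their edgeR adjusted p-values were 0.748 and 0.953.

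Levels were ordered after division by transcript length. In isotype libraries the mean level was 768 CPM per kb for Cd14, 86.4 for Tlr2, 37.6 for Tlr7, 34.0 for Tlr13, 21.1 for Tlr4, 8.53 for Tlr3, 7.13 for Tlr1, 6.58 for Tlr6, 1.52 for Tlr9 and 1.5 for Tlr8. Cd14, Tlr2 and Tlr7 did not overlap in that order over the 3 isotype libraries. The ranges of Tlr7 and Tlr13 overlapped, as did those of Tlr13 and Tlr4, of Tlr3 and Tlr1, of Tlr1 and Tlr6 and of Tlr9 and Tlr8. Tlr4 lay above Tlr3, and Tlr6 above Tlr9, without overlap. In anti-NK1.1 libraries Cd14 at 900 CPM per kb and Tlr2 at 56.3 CPM per kb were again first and second with no overlap. From Tlr7 at 19.7 CPM per kb downward, every gene overlapped its neighbour there.

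The pattern shared by most TLR genes was a low level in anti-NK1.1 libraries 1 and 3 and a level like isotype in anti-NK1.1 2. Anti-NK1.1 1 lay below every isotype library for all 9 TLR genes, where this held for 32.7% of all tested genes. Anti-NK1.1 3 lay below for 8 of the 9, against 30.5% of all tested genes. Anti-NK1.1 2 lay below for 2 of the 9, against 22.5%, and it had the highest level of the 3 anti-NK1.1 libraries for all 9. Libraries 1 and 3 below the isotype range with library 2 not below was the pattern of 6 of the 10 genes, namely Tlr1, Tlr3, Tlr4, Tlr7, Tlr9 and Tlr13. It was that of 12.7% of all tested genes, of 16.3% of those with transcripts of 3000 to 4000 nt and of 22.5% of those of 4000 to 5000 nt.

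**Figure D2:**
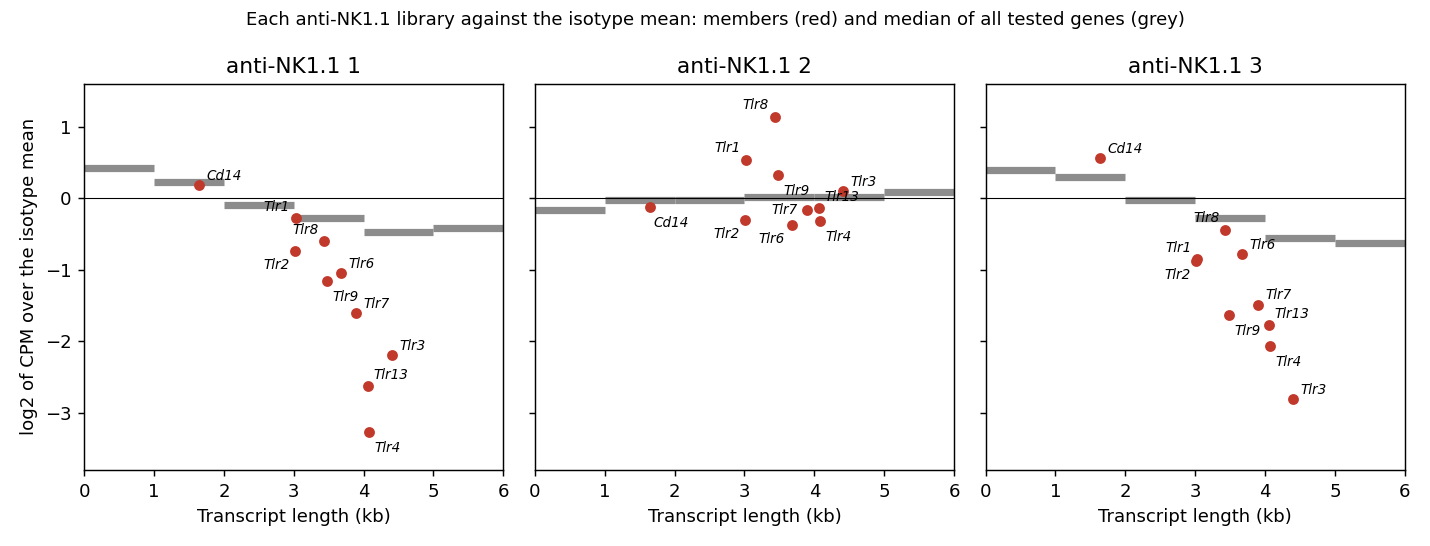
log2 of CPM in each anti-NK1.1 library over the isotype mean, against transcript length in kb, for the 10 genes (red points) and as the median of all tested genes per length class (grey bars, with a pseudocount of 0.1 CPM, and the last class, from 5 kb up, drawn to 6 kb). In libraries 1 and 3 the longer TLR transcripts lie furthest down and below the grey bars, while in library 2 most points lie near 0.

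Transcript length moved with these values. The 9 TLR transcripts are 3014 to 4407 nt long, and the 3 above 4000 nt, Tlr3, Tlr4 and Tlr13, were the lowest in anti-NK1.1 1 and anti-NK1.1 3. Against the isotype mean, Tlr3, Tlr4 and Tlr13 had log2 ratios of -2.19, -3.27 and -2.62 in anti-NK1.1 1 and of -2.81, -2.07 and -1.77 in anti-NK1.1 3. All tested genes of 4000 to 5000 nt had a median of -0.47 in anti-NK1.1 1 and -0.56 in anti-NK1.1 3, so these 3 genes lay below that median. In anti-NK1.1 2 the 3 genes had 0.10, -0.32 and -0.14, and the median of that length class was 0.01. Among the shorter TLR transcripts, Tlr2 had -0.74 and -0.88 in anti-NK1.1 1 and 3, and genes of 3000 to 4000 nt had a median of -0.28 in both.

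When each library was corrected for a smooth trend with transcript length and GC content, 7 of the 10 genes kept a log2 change below 0. Tlr4 then had -1.04 ± 0.49, Tlr13 -0.91 ± 0.42, Tlr3 -0.76 ± 0.51, Tlr7 -0.55 ± 0.29, Tlr2 -0.54 ± 0.18 and Tlr6 -0.46 ± 0.30 (edgeR log2 change ± SE), with adjusted p-values of 0.595 to 0.73. Tlr2 and Tlr6 still did not overlap between the groups, where 8.77% of genes were lower without overlap after the correction. Corrected Tlr4 was 12.8, 62.2 and 28.6 CPM in anti-NK1.1 libraries 1 to 3 and 59.9, 60.2 and 93.1 CPM in isotype libraries 1 to 3. The pattern of libraries 1 and 3 below isotype and library 2 not was then found for 5 of the 10 genes and for 12.6% of all tested genes. Cd14 had a log2 change of 0.00 ± 0.19 after the correction. Tlr1 turned to 0.10 ± 0.37.

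The calls depended on single libraries. Without anti-NK1.1 2, edgeR called Tlr3 (log2 change -2.47 ± 0.38, adjusted p = 0.0412), Tlr13 (-2.13 ± 0.33, adjusted p = 0.0416) and Tlr4 (-2.55 ± 0.45, adjusted p = 0.0476), 3 of the 10, and 129 genes in all (0.861%), of which 12 were higher (0.0801%) and 117 lower (0.781%). Without anti-NK1.1 1 and 3 together, the same genes had log2 changes of 0.10, -0.14 and -0.32, no gene was called (0%), and the single remaining anti-NK1.1 library was assumed to vary as the isotype libraries do. Tlr2 had -0.81 without anti-NK1.1 2 and -0.30 without anti-NK1.1 1 and 3. Between anti-NK1.1 1 and anti-NK1.1 2, where Tlr4 was 8.92 and 68.7 CPM, the neutrophil marker sum was 30930 and 31360 CPM, while single neutrophil markers differed, with Ltf at 552 and 1495 CPM and Mmp8 at 177 and 410 CPM. The part of neutrophils in the TLR values was not tested. Some microglial markers were low in the same libraries as Tlr4. Sall1, a transcription factor that marks microglia, had 69.5, 145 and 45.2 CPM in anti-NK1.1 libraries 1 to 3, against 141, 134 and 183 CPM in isotype libraries 1 to 3. Cx3cr1, the fractalkine receptor, had 1048, 2898 and 1165 CPM in anti-NK1.1 libraries, against 2271, 2311 and 2733 CPM in isotype libraries. Tmem119, a microglial membrane protein, did not, with 3473, 2732 and 3052 CPM in anti-NK1.1 libraries, against 1649, 2771 and 2681 CPM in isotype libraries. The part of the share of microglia in the TLR values was not tested.

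**Figure D3:**
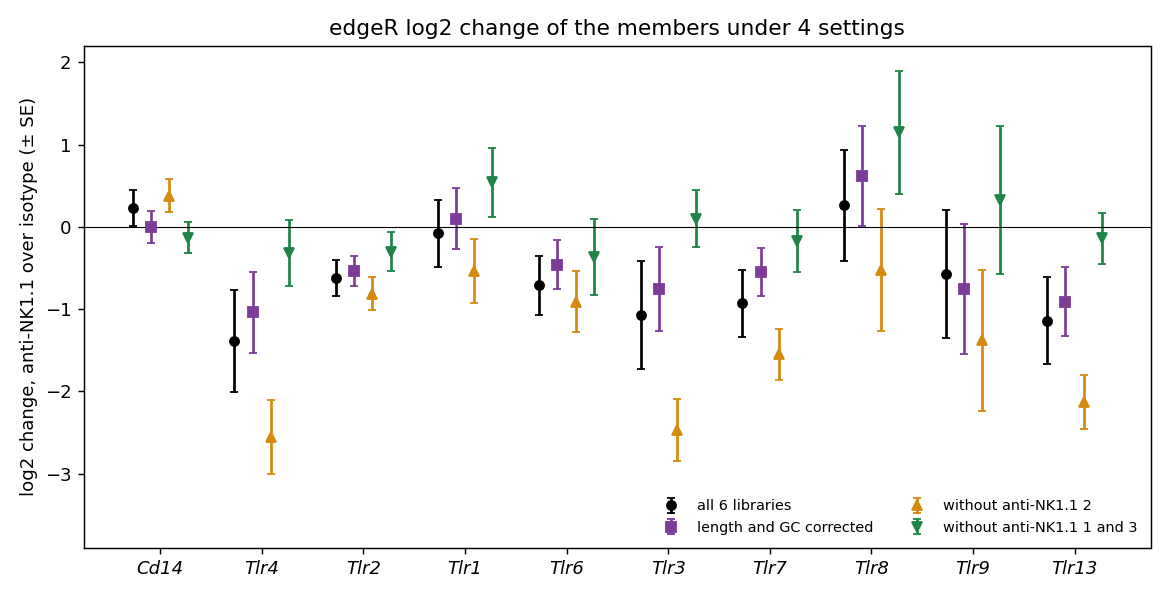
edgeR log2 change of each gene, anti-NK1.1 over isotype, with its SE as the bar, for all 6 libraries, after correction for transcript length and GC content, without anti-NK1.1 2, and without anti-NK1.1 1 and 3. Tlr3, Tlr4 and Tlr13 lie at -2.47, -2.55 and -2.13 without anti-NK1.1 2 and at 0.10, -0.32 and -0.14 without anti-NK1.1 1 and 3, while Tlr2 and Cd14 move less.

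Promoter windows, 250 bases before to 50 bases after the transcription start, were matched for 7 of the 10 genes (RefSeq, GRCm38.p6). They are shown for the pair below isotype in every anti-NK1.1 library, Tlr2 and Tlr6, and for Tlr3 and Tlr13, which spread several-fold within that group. Sequences run 5′ to 3′ on the gene's strand. Capitals mark matches, on either strand, to the NF-kB consensus, to the interferon-stimulated response element (ISRE) searched as GAAA, any 2 bases and GAAA, or to the core GAGGAA bound by PU.1, the myeloid lineage factor.
Tlr2 (chr3:83841559-83841858, minus strand): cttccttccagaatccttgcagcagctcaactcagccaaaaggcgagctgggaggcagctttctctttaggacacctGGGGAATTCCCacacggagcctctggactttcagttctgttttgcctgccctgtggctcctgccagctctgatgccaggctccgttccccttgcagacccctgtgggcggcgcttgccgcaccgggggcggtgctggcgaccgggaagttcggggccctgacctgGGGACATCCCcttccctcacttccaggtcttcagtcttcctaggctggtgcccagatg
Tlr6 (chr5:64959117-64959416, minus strand): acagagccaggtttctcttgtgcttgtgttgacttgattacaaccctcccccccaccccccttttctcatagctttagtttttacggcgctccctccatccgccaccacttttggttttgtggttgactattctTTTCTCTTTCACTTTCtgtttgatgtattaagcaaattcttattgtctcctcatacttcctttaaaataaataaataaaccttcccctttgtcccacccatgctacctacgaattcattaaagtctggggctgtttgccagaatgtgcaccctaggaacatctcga
Tlr3 (chr8:45410331-45410630, minus strand): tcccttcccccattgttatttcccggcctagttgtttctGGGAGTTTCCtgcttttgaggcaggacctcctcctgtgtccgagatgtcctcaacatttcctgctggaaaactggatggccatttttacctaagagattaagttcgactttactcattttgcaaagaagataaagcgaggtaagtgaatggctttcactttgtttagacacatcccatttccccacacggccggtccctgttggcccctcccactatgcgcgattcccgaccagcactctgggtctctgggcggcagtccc
Tlr13 (chrX:106143025-106143324, plus strand): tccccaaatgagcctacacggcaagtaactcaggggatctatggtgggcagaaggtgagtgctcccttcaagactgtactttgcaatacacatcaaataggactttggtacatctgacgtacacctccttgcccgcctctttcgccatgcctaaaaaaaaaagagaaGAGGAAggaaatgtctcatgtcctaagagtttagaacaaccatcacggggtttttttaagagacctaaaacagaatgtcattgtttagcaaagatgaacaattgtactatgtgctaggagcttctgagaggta

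Tlr2 held 3 matches to the NF-kB consensus, of which 2 overlap in the same run of capitals and begin at positions -173 and -172 from the start, and the other begins at -8. Tlr3 held 1 at -211, in a window that lies inside the gene and leaves out its annotated 5′ end at 45411080. Windows with at least 1 such match made up 8.46% of all 32851 promoter windows. The first of the 2 Tlr6 windows, the one shown, held 2 overlapping ISRE matches at -116 and -110, a motif found in 3.44% of all windows. The second Tlr6 window (chr5:64959999-64960298), not shown, includes the annotated 5′ end of the gene at 64960097 and held 0 matches to each motif. Tlr13 held 1 PU.1 core at -83, a motif found in 4 of the 9 windows of these genes and in 28.3% of all windows. These are matches of letters and say nothing of binding in these cells.

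The partners of the TLRs in trafficking and ligand binding mostly had positive log2 changes. None of the 14 genes passed edgeR's test (2 at an unadjusted p under 0.05, 1 in each direction, where 6.54% of all tested genes were past it), 12 had log2 changes above 0, and the median was 0.32 with a median transcript length of 2306 nt. The median was 0.16 with the length and GC correction and 0.18 without anti-NK1.1 1 and 3. Cd36, a scavenger receptor that works with TLR2, had 62.0, 53.0 and 76.9 CPM in anti-NK1.1 libraries, against 27.0, 29.4 and 52.1 CPM in isotype libraries, which gives a log2 change of 0.82 ± 0.33 (adjusted p = 0.727 by edgeR). Ctss, a protease that cleaves endosomal TLRs, had 0.39 ± 0.17 (adjusted p = 0.743 with edgeR). Both were above every isotype library in every anti-NK1.1 library. In all, 4 of the 14 were higher without overlap, against 7.73% of all tested genes, and 1 was lower, against 7.59%. The 2 genes with log2 changes below 0 were Cd180 and Hsp90b1. Cd180, a TLR-like receptor that restrains TLR4, had 14.2, 16.6 and 19.3 CPM in anti-NK1.1 libraries, against 48.5, 24.8 and 26.9 CPM in isotype libraries, with a log2 change of -1 ± 0.37 and no overlap (edgeR adjusted p = 0.727). Hsp90b1, which encodes gp96, the folding chaperone of most TLRs, had 165, 646 and 189 CPM in anti-NK1.1 libraries, against 548, 490 and 645 CPM in isotype libraries, low in the same 2 libraries as Tlr3, Tlr4 and Tlr13. Its log2 change was -0.75 ± 0.47 with overlap (adjusted p = 0.748 by edgeR). Without anti-NK1.1 2 its log2 change was -1.67 ± 0.22 (edgeR adjusted p = 0.0405).

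Adaptors and kinases differed among themselves. None of the 24 passed edgeR's test (2 at an unadjusted p under 0.05, both lower, against 3.8% of all tested genes), 15 had log2 changes below 0, against 49.1% of all tested genes, and the median was -0.22. That median was -0.03 without anti-NK1.1 1, -0.49 without anti-NK1.1 2, -0.10 without anti-NK1.1 3, -0.02 without isotype 3 and 0.03 without anti-NK1.1 1 and 3. Myd88, the adaptor of all TLRs but TLR3, had 168, 130 and 165 CPM in anti-NK1.1 libraries, against 149, 143 and 151 CPM in isotype libraries, which gives a log2 change of 0.07 ± 0.21 (adjusted p = 0.949 by edgeR). Ticam1, which encodes TRIF, had 18.4, 17.9 and 4.74 CPM in anti-NK1.1 libraries, against 3.32, 11.9 and 10.5 CPM in isotype libraries, which gives a log2 change of 0.68 ± 0.65 (adjusted p = 0.816 by edgeR). The ubiquitin ligase gene Traf6 had 5.12, 6.78 and 1.55 CPM in anti-NK1.1 libraries, against 8.68, 11.8 and 29.8 CPM in isotype libraries, which gives a log2 change of -1.90 ± 0.69 (adjusted p = 0.727 by edgeR). Ikbkb, a kinase subunit that activates NF-kB, had 14.3, 36.8 and 26.2 CPM in anti-NK1.1 libraries, against 46.5, 43.8 and 63.4 CPM in isotype libraries, which gives a log2 change of -0.99 ± 0.38 (adjusted p = 0.727 by edgeR). Traf6 and Ikbkb were lower without overlap, 2 of the 24, against 7.59% of all tested genes. Another 1 of the 24 was higher without overlap, against 7.73%. Ikbke, a kinase upstream of interferon regulatory factors, had -1.45 ± 0.67 with overlap.

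**Figure D4:**
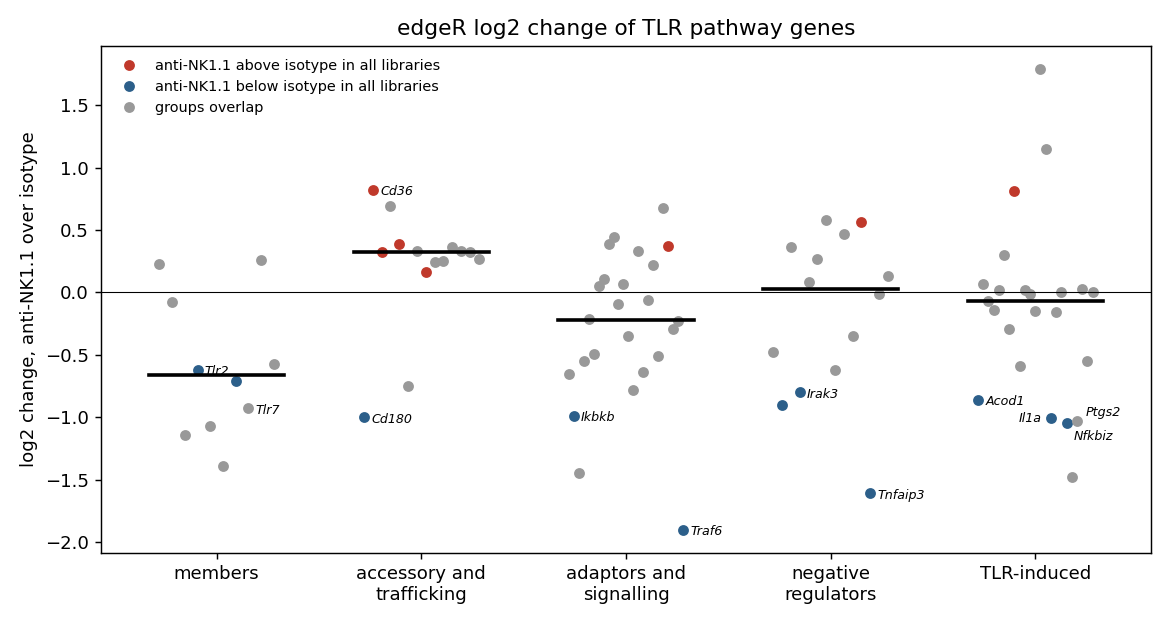
edgeR log2 change, anti-NK1.1 over isotype, of the 10 genes and of the tested genes of 4 TLR pathway lists, each point a gene and each bar the list's median. Points are coloured where all 3 anti-NK1.1 libraries lie above or below all 3 isotype libraries, and genes at an unadjusted p under 0.05 are named; 4 of 14 accessory genes are above without overlap, where 7.73% of all tested genes are, and the accessory median is 0.32.

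Of 14 negative regulators, none passed edgeR's test (2 at an unadjusted p under 0.05, both lower, against 3.8% of all tested genes), 7 had log2 changes above 0 and 7 below, with a median of 0.03. The deubiquitinase gene Tnfaip3, a brake on NF-kB, had 27.2, 64.9 and 50.3 CPM in anti-NK1.1 libraries, against 96.0, 125 and 213 CPM in isotype libraries. Its log2 change was -1.61 ± 0.39 (edgeR adjusted p = 0.714), and DESeq2 called it (-1.59 ± 0.39, adjusted p = 0.0201). Irak3, which encodes IRAK-M, an inhibitor of MyD88 signalling, had -0.80 ± 0.32 and Cyld had -0.90 ± 0.46, both without overlap. With Tnfaip3, 3 of the 14 were lower without overlap, against 7.59% of all tested genes, and 1 was higher, against 7.73%. Of 23 tested genes known to be induced by TLR ligands, none passed edgeR's test (4 at an unadjusted p under 0.05, all lower, against 3.8% of all tested genes), 14 had log2 changes below 0, and the median was -0.07. Il1a had 88.5, 119 and 112 CPM in anti-NK1.1 libraries, against 255, 194 and 195 CPM in isotype libraries, and DESeq2 called it (-0.99 ± 0.26, adjusted p = 0.0298). Nfkbiz, an inducible co-regulator of NF-kB, had -1.05 ± 0.36 and Acod1, the itaconate-producing enzyme, -0.86 ± 0.34, both without overlap (adjusted p = 0.727 for both with edgeR). With Il1a, 3 of the 23 were lower without overlap, against 7.59% of all tested genes, and 1 was higher, against 7.73%. The 4th gene at an unadjusted p under 0.05 was Ptgs2, which encodes an inducible cyclooxygenase, with -1.03 ± 0.43 and overlap. The other genes of the list lay on both sides of 0, from Nos2 at -1.48 ± 1.44 to Ifnb1 at 1.79 ± 2.24, each with 0 counts in at least 1 library.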

How the data were processed

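RNA was sequenced from 6 microglial libraries, 3 per group, with 75-base single-end reads and kits that neither mark strand nor add molecular identifiers, per the labels' protocols. The submitters' processing notes name build mm10, STAR 2.5.3a as well as DESeq2 1.1, Cufflinks 2.0, FastQC 1.0.0 and bcl2fastq 2.20.0.422. The sources used here do not give the counting program or the annotation. The deposited table is named as normalized, but it holds whole-number read counts per gene with a different total in each library. Rows of unassigned reads (no feature, 53.3% to 57.4% of the reads listed there, and ambiguous, 0.293% to 0.366%) and 26 rows with a calendar date for the symbol or no value were left out. The design foresaw either unit, and the count test was used.

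Counts of 14520 genes kept by filterByExpr were scaled by TMM. They were tested in R 4.3.3 by edgeR 4.0.16 (quasi-likelihood F-test, two-sided), with group as the only term and Benjamini-Hochberg adjustment over all tested genes at 0.05. The SE is the absolute log2 change divided by the square root of F. CPM uses the TMM-scaled library sizes, and 3 counts correspond to 0.0784 to 0.120 CPM. Transcript length and GC content are those of 1 principal transcript per gene (GENCODE M21, GRCm38, the assembly also called mm10), known for 99.1% of tested genes. Alternatives were other scalings and filters, DESeq2 1.42.0, limma-voom (limma 3.58.1), a length and GC offset fitted with mgcv 1.9.3, the replicate number as a block and leaving out libraries. On simulated counts of the 14520 genes, edgeR found 0.167% of the genes given a log2 change of 1, 36.5% of those given 2 and 77.2% of those given 4. Libraries of a group differed far beyond counting error, with a chi-square per gene of 79.5 to 348.

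Named genes are the 10 members, the other TLR genes, Ly96, Unc93b1, Myd88, Ticam1 and Klrb1c, and the 3 genes of smallest p in each pathway list. Hsp90b1, Ptgs2, Nos2, Ifnb1 and single cell type markers were added after their values were seen. The members and lists were chosen with earlier results of these data known. The summed level of the microglial marker list is not reported here. The lists are described by counts and medians, with no test of their own.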

Additional observations from a re-analysis of the deposited data

How the results depend on the processing

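The count of genes called by edgeR was 0 under the other scalings and filters, limma-voom, the length and GC correction and the replicate block, 83 with DESeq2 and 0 to 129 when 1 library was left out, the 129 without anti-NK1.1 2. Of the 10 members, 0 were called under each of these settings and 0 to 3 when 1 library was left out. Of the pathway genes, 2 were called with DESeq2 and 0 to 1 when 1 library was left out, and the cause was not tested. Tlr1 reversed from -0.08 to 0.10 with the length and GC correction, to 0.05 with that correction and the replicate block, to between -0.54 and 0.18 when 1 library was left out, and to 0.54 without anti-NK1.1 1 and 3 (a setting chosen after seeing the data). Without anti-NK1.1 1 and 3, Tlr3 turned to 0.10, Tlr9 to 0.33 and Cd14 to -0.13. Tlr8 ranged from -0.52 to 0.56 when 1 library was left out and was -0.52 without anti-NK1.1 2. The median of the negative regulators, 0.03, moved to -0.12 with the length and GC correction, -0.13 with that and the replicate block, and -0.19 without anti-NK1.1 1 and 3, and was -0.24 without anti-NK1.1 3. The median of the genes induced by TLR ligands, -0.07, moved to -0.42 without anti-NK1.1 1 and 3 and was -0.31 without anti-NK1.1 3. Tlr2 and Tlr6 kept their sign in every alternative run, with ranges of -0.81 to -0.3 and -0.91 to -0.37. So did Tlr4, Tlr7 and Tlr13, with wider ranges of -2.55 to -0.32, -1.55 to -0.17 and -2.13 to -0.14. The replicate numbers mark no shared animal, and deviations of same-numbered libraries correlated at 0.053, 0.03 and -0.004. With the replicate block no gene was called, and Tlr4 and Tlr3 had -1.89 and -1.68. Tlr5, Tlr8, Tlr9 and Tlr11 had 0 to 513 counts a library, and intervals of counting error would understate the spread between libraries.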

Other observations

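Ratios of counts within a library do not depend on how libraries are scaled. Cd14 had 160, 16.7 and 90.5 counts per Tlr4 count in anti-NK1.1 libraries 1 to 3 and 15.8, 18.5 and 11.8 in isotype libraries 1 to 3. Ly96 had 9.60, 0.867 and 4.25 counts per Tlr4 count in anti-NK1.1 libraries and 1.12, 0.912 and 0.451 in isotype libraries. In both ratios anti-NK1.1 2 was close to the isotype libraries and the other 2 anti-NK1.1 libraries were several times above them. Cd14 and Ly96 have short transcripts and Tlr4 a long one, and these are the 2 libraries with lower levels of long transcripts. With both length and GC content corrected for, Cd14 per Tlr4 in CPM was 99.8, 21.05 and 53.9 in anti-NK1.1 libraries, against 19.9, 20.2 and 18.3 in isotype libraries. Tlr2 and Tlr6 kept a similar ratio in all 6 libraries, with 13.4, 11.2 and 10.1 Tlr2 counts per Tlr6 count in anti-NK1.1 libraries and 12.7, 10.3 and 9.66 in isotype libraries.

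The makeup of the TLR transcripts also differed between libraries. Tlr2 took 55.9%, 32.8% and 48.6% of the counts of the 9 TLR genes in anti-NK1.1 libraries 1 to 3 and 37.8%, 39.0% and 32.0% in isotype libraries 1 to 3. Tlr4 took 3.20%, 10.7% and 7.02% in anti-NK1.1 libraries and 10.7%, 10.4% and 13.9% in isotype libraries. Summed over Tlr1, Tlr2, Tlr4 and Tlr6, the surface receptors had 194, 329 and 188 CPM in anti-NK1.1 libraries, against 377, 360 and 439 CPM in isotype libraries, with no overlap. Tlr2, itself without overlap, made up 156, 211 and 142 CPM of this in anti-NK1.1 libraries and 264, 247 and 270 CPM in isotype libraries. The endosomal receptors Tlr3, Tlr7, Tlr8, Tlr9 and Tlr13 summed to 84.6, 313 and 104 CPM in anti-NK1.1 libraries, against 320, 273 and 405 CPM in isotype libraries, with overlap through anti-NK1.1 2. Without Tlr2, all TLR genes of the set summed to 122.9, 431.7 and 150.1 CPM in anti-NK1.1 libraries. In isotype libraries that sum was 433.0, 386.5 and 573.5 CPM, and the groups overlapped.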
